A study of Mus musculus with 3 samples.

Results

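The genes described here are those of MHC class I antigen presentation and of the immunoproteasome, in acute myeloid leukemias of mice that lack miR-196b. The 10 genes were chosen by their symbols: the class I heavy chains H2-K1 and H2-D1, their partner B2m, the peptide transporter genes Tap1 and Tap2, the loading factor Tapbp, the immunoproteasome subunits Psmb8, Psmb9 and Psmb10, and the regulator Nlrc5. A row was analysed for 9 of the 10, out of 28074 gene symbols in all, and no row of Psmb9 was analysed here. All of the leukemias belong to 1 group of 3 mice, whose labels name the mice 5348, 5451 and 5480. They are called mouse 1, mouse 2 and mouse 3 below, a numbering that only names them.

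The mice carried homozygous loss of miR-196b, floxed Dnmt3a alleles, Flt3-ITD alleles and the Mx1Cre transgene. The genotype field gives Dnmt3a as floxed on both chromosomes and Flt3-ITD as homozygous, while the titles give Dnmt3a+/-. Mx1-Cre is a recombinase gene driven by an interferon-responsive promoter, and Flt3-ITD is an internal tandem duplication that activates the Flt3 receptor. Spleen cells of moribund mice were enriched for c-Kit, a growth factor receptor of immature blood cells, with magnetic beads, and their RNA was sequenced. The study set these leukemias against Dnmt3a/Flt3-ITD leukemias with intact miR-196b, which belong to another series and were not analysed here. All values below are therefore of miR-196b-deficient leukemias, compared mouse by mouse, and the effect of the deletion was not tested.

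MHC class I molecules show peptides from inside the cell to CD8 T cells. The proteasome cuts proteins into peptides, the TAP transporter carries them into the endoplasmic reticulum, and tapasin helps load them onto a heavy chain paired with β2-microglobulin. Interferon, and NLRC5 as a transactivator of class I genes, raise the expression of much of this pathway, and the immunoproteasome replaces 3 catalytic subunits of the constitutive proteasome. Loss of class I presentation is known as a route by which leukemic cells escape T cells.

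Of the 10 genes, 7 lie on mouse chromosome 17, within the MHC, between positions 33919478 (the start of Tapbp) and 35267497 (the end of H2-D1) in the RefSeq annotation of GRCm38.p6. B2m lies on chromosome 2, and Psmb10 and Nlrc5 on chromosome 8. RefSeq upstream sequences were found for 8 genes, and Tap2 and Nlrc5 were not among them. The stretches upstream of the annotated transcription start are shown for 5 of these, because they let the heavy-chain genes be compared and because they hold the motif matches described after them. Each is read 5′ to 3′ on the strand of its gene and ends at the base before the start. Capitals mark matches to any of 6 motifs, searched on both strands. H2-K1 is taken from chr17:34000348-34000597 (minus strand), H2-D1 from chr17:35262844-35263093 (plus strand), B2m from chr2:122147437-122147686 (plus strand) and Psmb8 from chr17:34197945-34198194 (plus strand). The Tap1 stretch, chr17:34187331-34187555 (plus strand), is the whole interval of 225 bases between the start of Tap1 and that of Psmb9, which is read in the opposite direction.
H2-K1: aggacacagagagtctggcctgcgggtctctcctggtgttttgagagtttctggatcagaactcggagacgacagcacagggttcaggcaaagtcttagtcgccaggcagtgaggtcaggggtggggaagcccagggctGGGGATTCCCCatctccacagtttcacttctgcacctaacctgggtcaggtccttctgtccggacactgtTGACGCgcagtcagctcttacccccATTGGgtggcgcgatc
H2-D1: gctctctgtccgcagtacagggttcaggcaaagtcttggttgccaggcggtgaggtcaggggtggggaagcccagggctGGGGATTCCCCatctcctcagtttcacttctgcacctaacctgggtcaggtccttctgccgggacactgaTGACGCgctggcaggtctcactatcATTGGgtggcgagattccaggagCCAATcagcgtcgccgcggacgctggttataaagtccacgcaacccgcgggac
B2m: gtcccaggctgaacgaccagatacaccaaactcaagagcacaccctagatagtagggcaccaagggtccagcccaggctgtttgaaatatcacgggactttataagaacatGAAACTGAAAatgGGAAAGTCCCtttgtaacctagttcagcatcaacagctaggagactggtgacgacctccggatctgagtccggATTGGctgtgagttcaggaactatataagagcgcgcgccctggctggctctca
Tap1: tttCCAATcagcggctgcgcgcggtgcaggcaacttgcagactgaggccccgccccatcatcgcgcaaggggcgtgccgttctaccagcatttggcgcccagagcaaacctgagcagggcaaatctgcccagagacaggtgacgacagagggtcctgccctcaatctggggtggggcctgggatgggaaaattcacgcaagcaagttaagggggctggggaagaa
Psmb8: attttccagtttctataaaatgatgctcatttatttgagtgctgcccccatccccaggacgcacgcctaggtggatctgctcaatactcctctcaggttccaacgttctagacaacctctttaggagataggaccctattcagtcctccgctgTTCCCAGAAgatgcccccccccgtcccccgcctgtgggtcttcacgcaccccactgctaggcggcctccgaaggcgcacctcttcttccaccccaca

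The motifs searched were the interferon-stimulated response element (GAAA, 2 bases of any kind, GAAA), the gamma-activated site TTCNNNGAA, the X2-type hexamer TGACGC, the cyclic AMP response element TGACGTCA, the CCAAT box and the NF-kappaB consensus. H2-K1 and H2-D1 both held the 11-base run GGGGATTCCCC, which matched the NF-kappaB consensus in 2 overlapping frames on each strand. In both genes TGACGC began 70 bases after the first base of that run. A CCAAT box, on the opposite strand, began 25 bases after the first base of TGACGC. Lined up on the run, 166 of 190 bases (87.4%) were the same in the 2 genes, with the start used here 60 bases farther downstream in H2-D1. With another annotated H2-K1 start, the run began 125 rather than 111 bases before it. The offset and the number of bases lined up therefore depend on the start used. The H2-K1 gene is annotated up to position 34000619, so its printed stretch lies inside the annotated gene. In B2m a response element, GAAACTGAAA, lay 139 to 130 bases before the start and an NF-kappaB match 126 to 117 bases before it. The Psmb8 stretch held the gamma-activated site TTCCCAGAA, and the interval between Tap1 and Psmb9 held a CCAAT box close to the Psmb9 start.

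Over the 8 genes, the NF-kappaB consensus was found in 3, against 3.90% of 32851 upstream windows of 250 bases, TGACGC in 2 (6.12% of windows), the response element in 1 (2.98%), the gamma-activated site in 1 (7.02%) and a CCAAT box in 6 (33.8%). The box of Tap1 and that of Psmb9 are the same bases of their shared interval. TGACGTCA was found in none (1.55%). A match describes letters in a window and does not show binding. Only matches to a full pattern were counted, so variants of an element were missed. A gene without a match, such as H2-K1 or H2-D1 for the response element, was therefore not shown to lack that element.

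Expression was measured as TPM, a transcript level scaled for transcript length and for a fixed total per library. Levels of different genes can therefore be set beside each other. The labels give a plan of 30000000 reads, but the depth reached in a library is unknown, so the spread between mice is the only error given. Across all genes, 15181 reached a mean TPM of at least 1, and all 9 measured class I and immunoproteasome genes were among them. Together the 9 took 0.390%, 0.521% and 0.494% of the summed TPM in mice 1, 2 and 3.

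The c-Kit-enriched identity of the samples was checked first. Kit stood at 139, 149 and 133 TPM in mice 1, 2 and 3, and the granule enzyme gene Mpo at 1081, 864 and 1632 TPM. All 8 myeloid leukemia and progenitor markers were expressed, and they summed to 3276, 2429 and 4138 TPM. Markers of other cells were present too, and none of their measured members was listed at 0 in any mouse. The 8 dendritic cell markers summed to 545, 1037 and 692 TPM, the 6 B cell markers to 47.4, 89.7 and 124 TPM, the 8 T and NK cell markers to 169, 122 and 165 TPM and the 7 measured macrophage and monocyte markers to 384, 395 and 720 TPM. The 6 neutrophil markers summed to 2263, 6057 and 20415 TPM, the 4 measured erythroid markers to 29.2, 24.1 and 61.4 TPM and the 4 stromal and endothelial markers to 60.0, 47.4 and 49.6 TPM. In bulk RNA, more cells of a type and more RNA per cell cannot be told apart.

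B2m, which encodes β2-microglobulin, the light chain shared by class I molecules, was the most abundant of the genes, at rank 41 of all symbols. It stood at 1506, 2003 and 2240 TPM by mouse number, with a mean of 1916 ± 375 (SD, n = 3). Mouse 3 was the highest for this gene, the only 1 of the 9 for which it was, and mouse 1 the lowest.

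The classical heavy chains H2-K1 and H2-D1, which bind the peptide, were expressed at like levels. H2-D1 had 637, 872 and 738 TPM (749 ± 118, SD, n = 3). H2-K1 had 643, 786 and 687 TPM (705 ± 73.3, SD, n = 3). Both were highest in mouse 2 and lowest in mouse 1, and their ranges over the mice overlapped. The ratio of H2-K1 to H2-D1 was 1.01, 0.902 and 0.931, so the order of the 2 genes was not the same in every mouse. B2m exceeded the sum of the 2 heavy chains 1.18-fold, 1.21-fold and 1.57-fold.

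Class I genes share sequence, which bears on how reads are divided among them. Of the distinct 31-base words in annotated H2-K1 transcripts (GENCODE M21), 22.8% also occurred in transcripts of other genes, and 11.1% in those of H2-D1. For H2-D1 the share was 26.7%, and 13.8% were found in H2-K1. The values of these 2 genes are uncertain for this reason, by an amount that the shares do not measure. B2m, Psmb10 and Nlrc5 shared no such word with another gene, and Tap1, Tap2 and Psmb8 shared under 2%. For Tapbp the share was 4.62%.

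**Figure D1:**
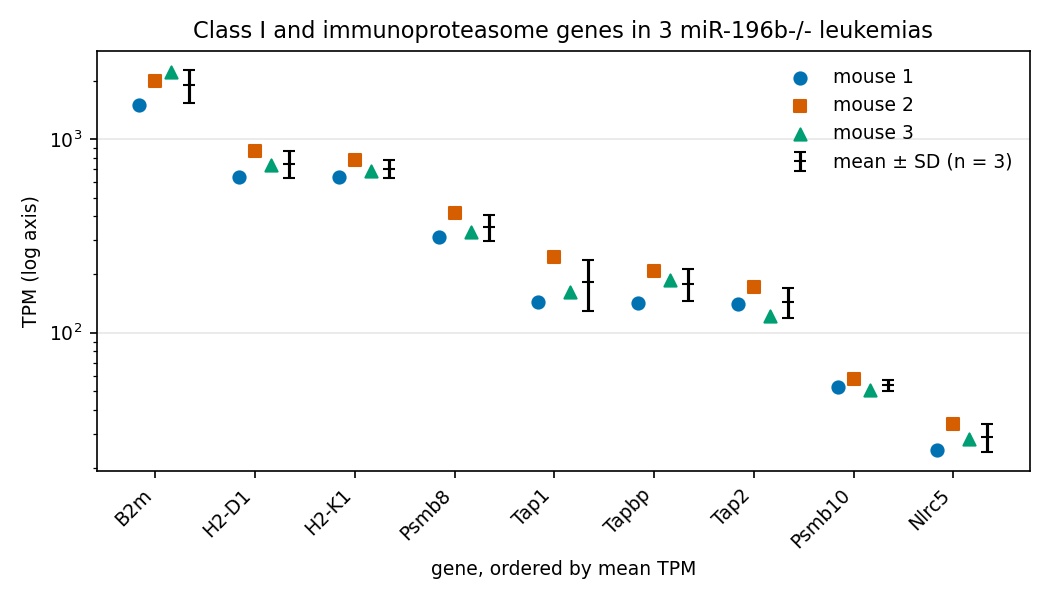
TPM (log axis) of the 9 measured genes in each mouse, ordered by mean TPM, with the mean ± SD over the 3 mice. The square of mouse 2 is the highest point for 8 genes, and B2m, at 1506 to 2240 TPM, stands above all the others.

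The peptide transporter and loading genes were less abundant. Tap1, which encodes a subunit of the ATP-driven peptide transporter, had 144, 245 and 161 TPM (184 ± 54.0, SD, n = 3). It stood out in mouse 2, where its level was 1.70 times that of mouse 1, and it had the widest spread of the 9 genes, an SD of 0.40 on the log2(TPM + 1) scale. Tap2, the gene of the other transporter subunit, had 141, 172 and 121 TPM (145 ± 25.5, SD, n = 3), with mouse 3 the lowest. The ratio of Tap1 to Tap2 was 1.02 in mouse 1, 1.43 in mouse 2 and 1.33 in mouse 3. Tapbp, which encodes tapasin, had 142, 208 and 188 TPM (179 ± 33.7, SD, n = 3) and was lowest in mouse 1. Tap2 was the lowest of these 3 genes in each mouse, by a narrow margin in mouse 1, and Tap1 was above Tapbp in mice 1 and 2 but not in mouse 3.

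The immunoproteasome subunits differed widely in level. Psmb8, the gene of the chymotrypsin-like subunit β5i, had 312, 416 and 333 TPM (354 ± 54.8, SD, n = 3), again highest in mouse 2. Psmb10, the gene of the trypsin-like subunit β2i, had 52.5, 57.6 and 50.6 TPM (53.6 ± 3.61, SD, n = 3). Its spread, an SD of 0.09 on the log2 scale, was the smallest of the 9 genes. The ranges of the 2 subunits did not overlap.

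Nlrc5, the transactivator gene, was the least abundant, at 24.6, 33.8 and 28.2 TPM (28.9 ± 4.66, SD, n = 3). It too was highest in mouse 2 and lowest in mouse 1. Among the 9 genes in order of mean TPM, neighbours whose ranges overlapped were H2-D1 with H2-K1, Tap1 with Tapbp, and Tapbp with Tap2. The ranges of every other neighbouring pair did not overlap.

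Each inducible subunit has a constitutive counterpart in the standard proteasome, which Psmb5 (β5), Psmb6 (β1) and Psmb7 (β2) encode. Psmb5 had 111, 89.9 and 103 TPM, so Psmb8 exceeded it 2.82-fold in mouse 1, 4.62-fold in mouse 2 and 3.25-fold in mouse 3, a mean ratio of 3.56 ± 0.944 (SD, n = 3). Psmb7 had 152, 146 and 159 TPM, and the ratio of Psmb10 to Psmb7 was 0.345, 0.393 and 0.319 (0.352 ± 0.0378, SD, n = 3). The inducible gene was thus the more abundant of its pair for β5 and the less abundant for β2, in each of the 3 mice. Both ratios were highest in mouse 2. Psmb6 had 193, 162 and 175 TPM, and its inducible counterpart Psmb9 was not analysed. The Psmb5 level is uncertain, because 71.7% of its 31-base words occur in transcripts of other genes, most of them in Gm3375, of which no row was analysed here. Psmb7 shared 1.47%.

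**Figure D2:**
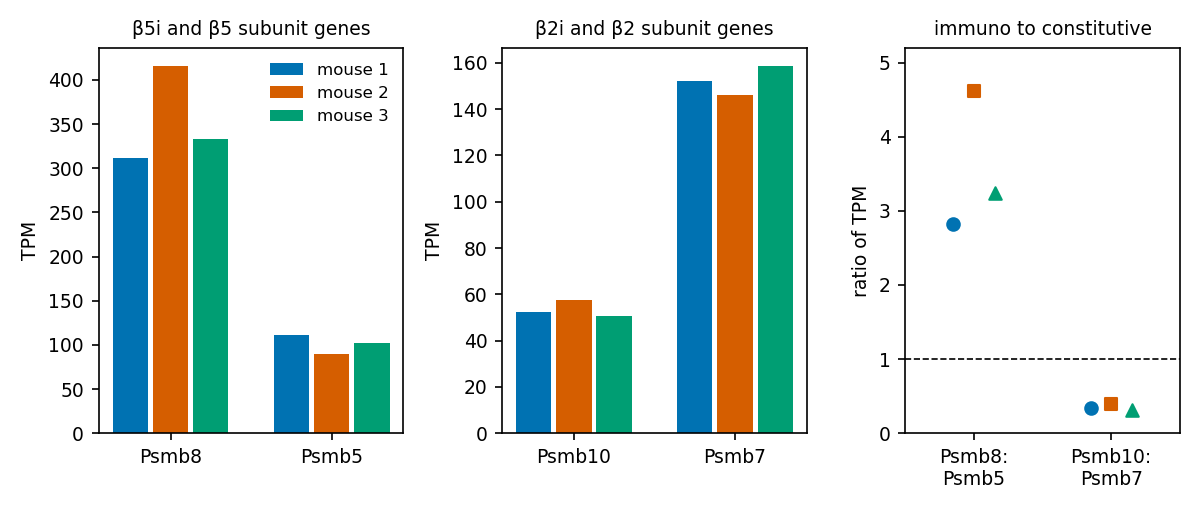
Left and middle, TPM of the inducible genes Psmb8 and Psmb10 beside their constitutive counterparts Psmb5 and Psmb7, with 1 bar per mouse. Right, the ratio of each pair by mouse with a dashed line at 1, where Psmb8 to Psmb5 runs from 2.82 to 4.62 and Psmb10 to Psmb7 from 0.319 to 0.393.

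The genes shared a pattern over the mice. All 9 were higher in mouse 2 than in mouse 1, against 41% of the 15181 expressed genes. Mouse 2 was the highest for 8 of 9 (31.1% of expressed genes), mouse 3 for 1 (20.3%) and mouse 1 for 0 (48.6%). Mouse 1 was the lowest for 7 of 9 (24.4%). For the other 2, Tap2 and Psmb10, mouse 3 was the lowest (42.6%). Compared with mouse 1, mouse 3 was higher for 7 of 9 (34.7%), and compared with mouse 3, mouse 2 was higher for 8 of 9 (57.1%). The 9 genes are members of 1 pathway and most are neighbours on 1 chromosome, so they are not independent observations, and no test was made.

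The differences were small. The median of the 9 differences between mice 2 and 1 was 0.41 on the log2(TPM + 1) scale, against -0.08 over all expressed genes. For mouse 3 minus mouse 1 the median was 0.16, against -0.13. A difference of at least 1.5-fold between any pair of mice was found for 1 of 9, Tap1, against 27.2% of expressed genes, and one of at least 2-fold for 0 of 9, against 8.57%. The median SD was 0.23 log2 units for the 9 genes and 0.21 for all expressed genes. The direction was shared, while the median SD lay near that of all expressed genes. The median level over the 9 was 7.18, 7.94 and 7.56 on the log2(TPM + 1) scale in mice 1, 2 and 3. Over all expressed genes it was 4.28, 4.15 and 4.14, so SDs and fold counts were compared at unlike levels. After the libraries were scaled to a common upper quartile, 9 of 9 were again higher in mouse 2 than in mouse 1 (50.5% of expressed genes), 8 highest in mouse 2 (34.1%) and 8 lowest in mouse 1 (36.8%), with Psmb10 now among the latter. In those values 3 of 9 passed 1.5-fold (26% of expressed genes), namely Tap1 (1.82-fold between the highest and lowest mouse), B2m (1.66-fold) and Tapbp (1.57-fold).

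**Figure D3:**
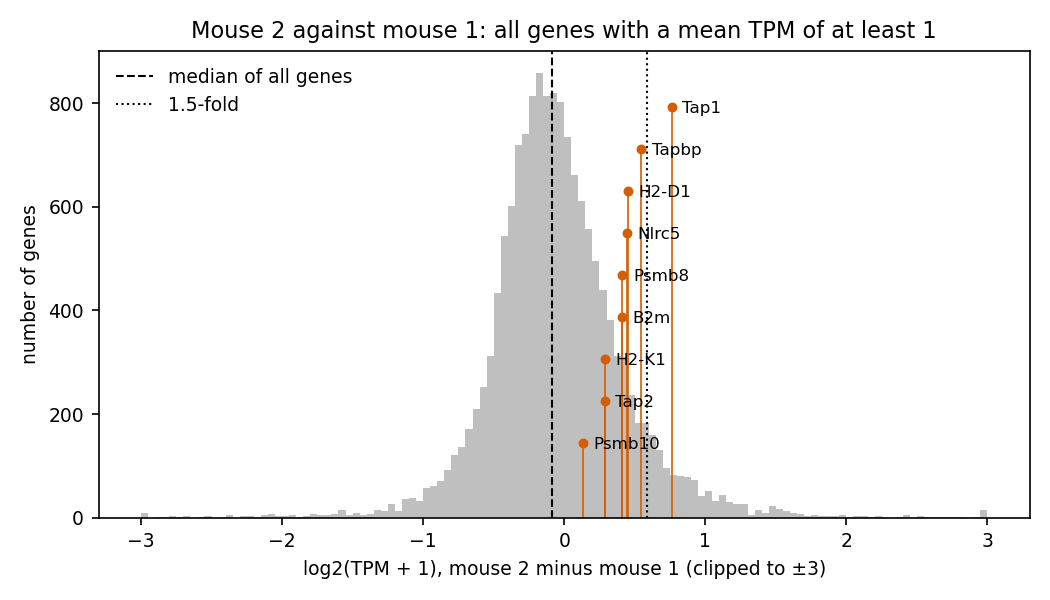
Histogram of the difference in log2(TPM + 1) between mouse 2 and mouse 1 for 15181 genes, clipped at 3 in either direction, with the 9 genes marked by stems whose heights only separate the labels. All 9 lie to the right of the all-gene median of -0.08, and Tap1, at 0.76, is the only 1 beyond the dotted line at 1.5-fold.

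Other proteasome genes had other orders over the mice. Of 11 genes of the 20S core common to both forms of the particle, 1 was higher in mouse 2 than in mouse 1 in the values as deposited (41% of expressed genes), and the median difference was -0.15. Mouse 1 was the highest for 9 of 11 core genes as deposited (48.6% of expressed genes). After upper-quartile scaling it was the highest for 4 of 11, a count for which no share over all genes is given. In the scaled values 3 of 11 were higher in mouse 2 than in mouse 1 (50.5% of expressed genes). The constitutive subunits Psmb5, Psmb6 and Psmb7 were all lower in mouse 2 than in mouse 1 as deposited, and 2 of the 3 were after that scaling. Of all expressed genes, 41% were higher in mouse 2 than in mouse 1 as deposited and 50.5% after scaling. The activator genes Psme1 and Psme2, which encode the interferon-inducible PA28 cap, had 407, 519 and 492 TPM and 175, 243 and 231 TPM. Both followed the class I genes in being lowest in mouse 1 and highest in mouse 2, as did the assembly factor gene Pomp, at 231, 295 and 269 TPM. Psme3 (189, 139 and 146 TPM), the gene of a nuclear activator, and Psme4 (90.4, 77.1 and 65.4 TPM), that of the activator PA200, were highest in mouse 1.

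Peptide loading genes outside the set were mixed. Of 7, 4 were higher in mouse 2 than in mouse 1 as deposited (41% of expressed genes), and 5 after upper-quartile scaling (50.5%). The calreticulin gene Calr had 688, 756 and 829 TPM, the disulfide isomerase gene Pdia3 had 254, 304 and 322 TPM, and the calnexin gene Canx had 293, 246 and 286 TPM. The trimming peptidase gene Erap1 varied little, at 57.7, 55.1 and 53.2 TPM.

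Most non-classical class I genes were also highest in mouse 2. Of 16 listed, 14 reached a mean TPM of at least 1, and of these 13 were higher in mouse 2 than in mouse 1 (41% of expressed genes) and 11 were highest in mouse 2 (31.1%), counts that upper-quartile scaling left at 13 and 11. Their median difference between mice 2 and 1 was 0.45. The most abundant, H2-Q6, had 174, 177 and 118 TPM, and H2-T23, the mouse Qa-1 gene, whose product presents peptides to NK receptors, had 107, 159 and 138 TPM. Of the 31-base words of H2-Q6 and H2-T23, 50.3% and 24.5% also occur in transcripts of other genes. The shares found in H2-K1 or H2-D1 were 10.2% and 7.03%. The values of these genes are uncertain for this reason too, by an amount that the shares do not measure. Over the 16 listed genes, the share found in any other gene ranged from 0.149% (Mr1) to 51.0% (H2-T22). The share found in H2-K1 or H2-D1 ranged from 0% (Cd1d1 and Mr1) to 10.7% (H2-Q4). Of the words of H2-T10, 47.6% occur in H2-T22, so the genes counted are not fully separate measures.

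Regulators of the pathway were examined by their own levels. Of 11, 7 were higher in mouse 2 than in mouse 1 (41% of expressed genes). Irf1, an interferon-induced activator of class I and immunoproteasome genes, had 46.8, 86.5 and 83.4 TPM. Irf8, a myeloid and dendritic lineage factor, had 716, 1256 and 775 TPM, and Ciita, the class II transactivator, had 68.2, 157 and 112 TPM. All 3 stood highest in mouse 2, like Nlrc5. Nfkb1 went the other way, at 304, 223 and 168 TPM. Of the 4 interferon gamma receptor and kinase genes, 3 were higher in mouse 2 than in mouse 1 (41% of expressed genes). Ifngr1 had 256, 496 and 328 TPM.

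Other interferon-responsive genes and class II genes also separated the mice. The 2 interferon lists hold genes that respond to type I interferon or to interferon gamma, and no gene that encodes an interferon. All 16 type I interferon-responsive genes were lowest in mouse 1 (24.4% of expressed genes). Of the 16, 12 were highest in mouse 3 (20.3%) and 4 in mouse 2 (31.1%). Their median difference between mice 2 and 1 was 0.99. At least 1.5-fold higher in mouse 2 than in mouse 1 were 13 of 16, against 7.85% of expressed genes and 1 of 9 class I and immunoproteasome genes. Their median level was 1.85, 3.07 and 3.36 on the log2(TPM + 1) scale, against 7.18, 7.94 and 7.56 for the 9. These sets were thus compared at unlike levels, with the interferon-responsive genes much nearer the floor. Irf7, 1 of the 16 and a regulator of the genes that encode type I interferons, had 12.8, 60.0 and 64.1 TPM. Of 13 expressed interferon gamma-responsive genes, 9 were lowest in mouse 1 (24.4% of expressed genes) and 6 highest in mouse 2 (31.1%). All 6 class II genes were highest in mouse 2 (31.1% of expressed genes), with a median difference to mouse 1 of 0.76. The invariant chain gene Cd74 had 6391, 10438 and 7189 TPM.

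Dendritic cell markers, too, were mostly highest in mouse 2 and lowest in mouse 1. Of the 8 markers, 7 were highest in mouse 2 (31.1% of expressed genes) and 7 lowest in mouse 1 (24.4%), with a median difference between the 2 of 1.13. Clec9a, a receptor of conventional dendritic cells, had 184, 415 and 273 TPM, and Xcr1, a chemokine receptor of the same cells, had 26.1, 75.8 and 56.0 TPM. Of the 8 myeloid leukemia and progenitor markers, 2 (Kit and Flt3) were higher in mouse 2 than in mouse 1 as deposited (41% of expressed genes). After upper-quartile scaling the count was also 2 (50.5%). The median difference over the 8 was -0.50 as deposited and -0.40 after that scaling. Of 6 expressed T and NK cell markers, 2 were highest in mouse 1 (48.6% of expressed genes), 1 in mouse 2 (31.1%) and 3 in mouse 3 (20.3%). Neutrophil markers were lowest in mouse 1 (6 of 6, against 24.4% of expressed genes) and highest in mouse 3 (6 of 6, against 20.3%). The part of dendritic, neutrophil or other cells in the class I levels was not tested.

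**Figure D4:**
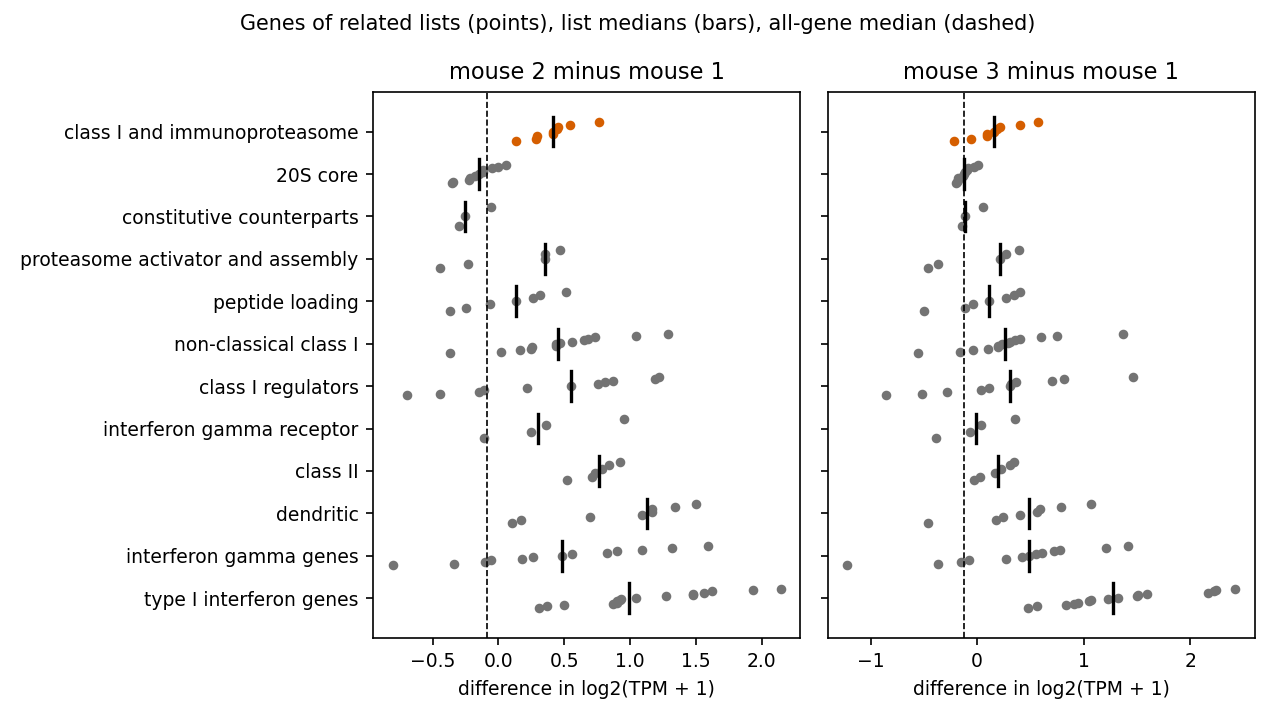
Differences in log2(TPM + 1) of each expressed gene (points) in 12 lists, for mouse 2 minus mouse 1 (left) and mouse 3 minus mouse 1 (right), with list medians (bars) and the median of all expressed genes (dashed). The 9 class I and immunoproteasome genes have medians of 0.41 and 0.16, the 20S core genes -0.15 and -0.13, and the type I interferon-responsive genes 0.99 and 1.27. The labels type I interferon genes and interferon gamma genes stand for responsive genes.

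The likeness of other genes to the class I pattern was measured as the distance between profiles over the 3 mice, each taken as deviations from its own mean log2 level. The median level of the 9 in each mouse is that of Tap1 in mice 1 and 2 and of Tapbp in mouse 3, so a profile built from it follows these genes more than the group. Among the 9506 other genes whose mean TPM was 10 or more, the nearest to that profile were Rasa4 (0.00715 log2 units), Gm17228 (0.00747), St3gal5 (0.0215), Morn1 (0.0224) and Cd36 (0.0246). With the median of the 9 genes' deviations as the profile (-0.21, 0.23 and -0.03 in mice 1, 2 and 3), a choice made after seeing the data, the nearest were Hipk2 (0.00923 log2 units), Ahcyl2 (0.0111), Ctdp1 (0.0152), Slc25a45 (0.0166) and Nsdhl (0.0171). The 5 nearest genes thus depended on how the profile was formed, and none of the 10 was on the pathway lists.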

How the data were processed

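RNA of c-Kit-enriched leukemic spleen cells was sequenced in 3 mice, as stranded, paired-end reads of 150 nt, per the labels' protocols. The labels name both ribosomal RNA depletion and an mRNA kit. The authors deposited 1 table of TPM per gene symbol. The submitters' processing notes name kallisto, with no version, and the build mm10, and the annotation is not given in the sources used here. Although the table is named for log2 FPKM, its values are linear, and the 3 column sums lie within 0.276% of each other, so they were treated as TPM. TPM keeps no depth. The table also holds 3 per-sample columns that match no sample of this series and were not used.

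Of 28987 rows, 795 without a symbol (0.532% to 0.608% of a column's sum) and 27 with a calendar date as symbol (0.179% to 0.202%) were left out, and values of 90 symbols on several rows were summed. None of the described genes was among the 90. Levels and differences were taken on log2(TPM + 1), and ratios on TPM without a pseudocount. A mean TPM of at least 1 defined expressed genes. With 1 group no test was made. Counts of the 9 genes are set beside the same share over all expressed genes. Fold calls and scaling were tested on simulated data. GENCODE M21 transcripts gave shared words of 31 bases, and RefSeq (GRCm38.p6) gave places and upstream sequences. The genes and lists were chosen with earlier results of these data known. Results of some listed genes are not reported here. The genes named are the 10 members, examples from the listed pathway and marker genes, and the 5 genes of nearest profile. Alternatives were a pseudocount of 0.1, upper-quartile and median-of-log-ratios scaling, other filters, the largest row per symbol, and each mouse left out. The scripts ran in Python 3.11.15 with pandas 2.3.3, numpy 2.4.6 and matplotlib 3.10.9.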

Additional observations from a re-analysis of the deposited data

How the results depend on the processing

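The number of the 9 genes that differed at least 1.5-fold between any pair of mice moved from 1 to 3 with upper-quartile scaling and to 3 with median-of-log-ratios scaling. With a mouse left out it ranged from 0 (without mouse 2) to 1. The other 54 of 57 recomputed counts, ratios and medians kept within 1.5 times the count or within 1 SD of the value, as did all 63 recomputed levels of single genes. Many of these could not have moved: ratios of TPM are the same under any scaling of a library, none of the 9 genes had several rows, and a mean of 3 moves by less than 1 SD when a mouse is left out. The number lowest in mouse 1 was 7, and 8 under either scaling, and the number highest in mouse 2, whose alternatives were chosen after seeing the data, was 8 under both. Upper-quartile scaling moved mice 1, 2 and 3 by -0.084, 0.014 and 0.070 log2 units. No paired analysis was possible because all mice belong to 1 group. The depth is unknown, so counting error cannot be stated, and 3 mice limit the precision.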
